A study of Mus musculus with 12 samples.

Results

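NF-kB is a family of dimeric transcription factors. The genes described here are 10 genes of that pathway in NIH3T3, a mouse fibroblast line that grows without limit: the subunits Nfkb1, Nfkb2, Rela and Relb, the inhibitors Nfkbia, Nfkbie and Tnfaip3, the adhesion molecules Icam1 and Vcam1, and Ptgs2, the inducible cyclooxygenase. They were chosen as NF-kB factors, inhibitors and classic targets outside the chemokines, and every probe set that the platform annotation gives to one of them alone was taken. Of the 10 genes, 9 were measured, with 1 probe set each, among 19938 genes in all. Nfkb1 was not named by any probe set in the annotation used, and no value is given for it.

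Expression was measured on 12 Affymetrix arrays after knockdown of UBF, a nucleolar protein that works with RNA polymerase I and is the product of Ubtf. Dharmafect 2 reagent carried an siRNA at 40 nM, and total RNA was taken 48 h later. The 4 groups of 3 arrays were Mock (reagent with no siRNA), sirEGFP (an siRNA named for EGFP), sirUBF oligo #1 and sirUBF oligo #2, which target UBF with different siRNAs. All groups are the same cell line grown in medium with serum, with no cytokine or other inducer of NF-kB named in the labels. The arrays are called biological replicates, with nothing further on whether they came from separate cultures, so p-values measure the spread between these arrays.

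In resting cells, NF-kB dimers such as RelA with p50 are held in the cytoplasm by inhibitor of kB (IkB) proteins. Signals from cytokine and Toll-like receptors activate the IkB kinase, the IkB protein is degraded, and the dimer binds kB elements in the promoters of its targets. Several of those targets, among them Nfkbia and Tnfaip3, encode inhibitors that shut the pathway off again, while in fibroblasts Icam1, Vcam1 and Ptgs2 are known as cytokine-induced genes.

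The promoter windows of the feedback genes hold matches to the consensus of the kB element. RefSeq promoter windows (GRCm38.p6, 250 bases before to 50 bases after a gene's start) were matched for 7 of the 10 genes, not for Nfkb1, Relb or Vcam1. The NF-kB consensus GGGRNWYYCC was searched (R is A or G, W is A or T, Y is C or T, N is any base). Both strands were searched, where a palindromic stretch can match on both and matches can overlap. It was found in at least 1 window of 4 of these 7 genes, Nfkb2, Nfkbia, Nfkbie and Tnfaip3, against 1388 of 27025 genes with a window (5.14%). The windows of Rela, Icam1 and Ptgs2 held no match to these letters. Near matches were not counted, such as TGGAAATTCC in the Icam1 window, which differs in its first base. For each gene 1 stretch with a match is shown, and for Tnfaip3 both, on the gene's strand with the matching bases in capitals, at chr19:46304673-46304760 (+) for Nfkb2, chr12:55492642-55492701 (-) for Nfkbia, chr17:45555569-45555628 (+) for Nfkbie, and chr10:19015501-19015560 (-) and chr10:19015388-19015447 (-) for Tnfaip3. A match is a description of the letters and not a measured binding site.
Nfkb2: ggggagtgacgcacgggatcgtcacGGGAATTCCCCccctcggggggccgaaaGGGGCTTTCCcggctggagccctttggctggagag
Nfkbia: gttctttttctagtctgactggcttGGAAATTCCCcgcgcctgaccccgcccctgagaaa
Nfkbie: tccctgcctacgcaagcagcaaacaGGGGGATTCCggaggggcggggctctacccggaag
Tnfaip3, farther from the start: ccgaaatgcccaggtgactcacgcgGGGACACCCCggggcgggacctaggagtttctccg
Tnfaip3, nearer to the start: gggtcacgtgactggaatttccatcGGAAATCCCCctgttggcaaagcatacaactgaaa
The matches shown began 39, 38 and 11 bases before the start in Nfkb2, those at 39 and 38 overlapping, 29 in Nfkbia, 106 in Nfkbie, and 125 and 12 in Tnfaip3. The windows of other Nfkb2 starts held a pair of further matches that are not shown, one 236 bases before a start and one 225 bases before a start and 10 bases past another.

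All levels are the deposited log2 values of a gene's probe set, and array medians lay between 5.38 and 5.54. Levels of different genes come from different probes and are not compared with each other. Ubtf ranged from 7.49 to 7.998 across the 6 arrays with sirUBF and from 8.04 to 8.68 across the 6 controls, without overlap, and its change against sirEGFP was -0.55 with oligo #1 and -0.61 with oligo #2 (limma adjusted p = 0.107 and 0.0771). With the replicate number as a block, the limma adjusted p was 0.0172 for oligo #1 and 0.0115 for oligo #2. Against Mock, Ubtf changed by -0.74 with oligo #1 and -0.79 with oligo #2, both called (limma adjusted p = 0.0252 and 0.0146). Each of these calls was lost with some single arrays left out. Between the siRNAs the Ubtf level differed by -0.05, with a 95% interval of -0.40 to 0.30. All 8 fibroblast markers were measured, with mean levels per array of 8.77 to 9.39. The macrophage, endothelial and epithelial lists averaged 4.54 to 5.27 per array, and signal over background could not be judged for any of them.

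Vcam1 rose about 2-fold with oligo #2 and was the only one of the 9 measured genes to pass the test in any comparison with a control. None of the 9 passed with oligo #1, and none passed with both siRNAs. Vcam1 encodes the cell-surface ligand of integrin alpha4 beta1, through which leukocytes attach. Its values were 8.59, 8.34 and 8.50 in Mock, 8.43, 8.61 and 8.37 with sirEGFP, 8.66, 8.51 and 8.39 under oligo #1, and 9.55, 9.65 and 9.45 with oligo #2. The 3 oligo #2 arrays lay above all other 9 arrays, whose groups overlapped one another. Of all genes, 3.32% had their oligo #2 arrays above the other 9 arrays by any margin.

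Against sirEGFP, Vcam1 was 1.08 ± 0.12 (SE, n = 3 arrays a group) higher on the log2 scale with oligo #2, which is 2.12-fold with a 95% interval of 1.77 to 2.53 (limma adjusted p = 0.000185). It ranked 57th from the highest change among the 19938 genes. Of all genes, 2.26% were called in this comparison and 1.52% were called higher, beside 1 of the 9 genes here. With the replicate number as a block over all 12 arrays, 773 genes (3.88%) were called in place of 451, and Vcam1 was again the only one of the 9. Against Mock the change of Vcam1 was 1.08 (limma adjusted p = 0.000206), where 4.25% of all genes were called.

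With oligo #1, Vcam1 changed by 0.05 ± 0.12 against sirEGFP, with a 95% interval of -0.21 to 0.31 (limma adjusted p = 0.925). In that comparison 2.47% of all genes were called. The siRNAs differed from each other by 1.03 ± 0.12 in Vcam1, or 2.05-fold with an interval of 1.71 to 2.45 (limma adjusted p = 0.000444), beside 3.67% of all genes called. Both comparisons with sirEGFP share their control arrays, while the direct comparison between the siRNAs does not use them. Of all genes, 111 (0.557%) had the calls of Vcam1, higher with oligo #2 than with sirEGFP and than with oligo #1 and not called with oligo #1. At 2-fold or more this held for 37 genes (0.186%).

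The mean of both siRNAs against sirEGFP was called for Vcam1, at 0.57 ± 0.10 (limma adjusted p = 0.0125; 1.93% of all genes called), between 0.05 with oligo #1 and 1.08 with oligo #2. Without sirEGFP array 3 this mean was 0.52 and lost its call (limma adjusted p = 0.101). The change with oligo #2 alone kept its call under all alternatives tried, between 1.03 and 1.15 with adjusted p from 3.21e-05 to 0.00183.

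Vcam1 is also a gene of activated endothelium, so the endothelial markers stand beside it. All 6 were measured, and their mean level per array was 4.54 to 4.92 in Mock, 4.58 to 4.83 with sirEGFP, 4.55 to 4.64 with oligo #1 and 4.75 to 4.98 with oligo #2. None of the 6 was called against sirEGFP with either siRNA, and Cdh5, the endothelial cadherin, was 0.96 higher with oligo #2 than with oligo #1 (limma adjusted p = 0.0176). Against sirEGFP, Cdh5 stood at -0.37 with oligo #1 and 0.59 with oligo #2. The other endothelial markers were not called between the siRNAs, with Pecam1 at -0.02, Tie1 at -0.13, Kdr at 0.12, Tek at 0.20 and Emcn at 0.255. Among fibroblast markers, the growth factor receptors Pdgfra and Pdgfrb were called higher with oligo #2 against sirEGFP, by 0.91 (limma adjusted p = 0.0119) and 1.75 (limma adjusted p = 0.0126). The other 6 of the 8 were not called against sirEGFP. Of these, Thy1 stood at -0.32 with oligo #2 and was lower than with oligo #1, at a difference of -0.67 (limma adjusted p = 0.0305), Col1a1 and Col3a1 stood at 0.24 and 0.30, and Col1a2, Vim and S100a4 at 0.04, 0.02 and -0.06. Of the 7 macrophage markers, at a mean level of 4.80 to 5.27 per array, Csf1r and Lyz2 were lower with oligo #2 than with oligo #1, at differences of -0.80 and -1.29 on the log2 scale (limma adjusted p = 0.00807 and 0.00145). Csf1r was called higher with oligo #1 against sirEGFP, at 0.83 (limma adjusted p = 0.00874), and stood at 0.04 with oligo #2. Lyz2 stood at 0.67 with oligo #1 and -0.61 with oligo #2, neither called. Cd68 stood higher with oligo #2, at 1.00 against sirEGFP (limma adjusted p = 0.0648, or 0.00137 with the replicate block) and 0.58 against oligo #1 (0.326, or 0.0293 with the block). Mean Cd68 was 6.51 in Mock, 6.01 with sirEGFP and 7.01 with oligo #2, whose array 2, at 6.45, was within the Mock range. The part of these markers in the change of Vcam1 was not tested. In bulk RNA, fewer cells of a type and less RNA per cell cannot be told apart.

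**Figure D1:**
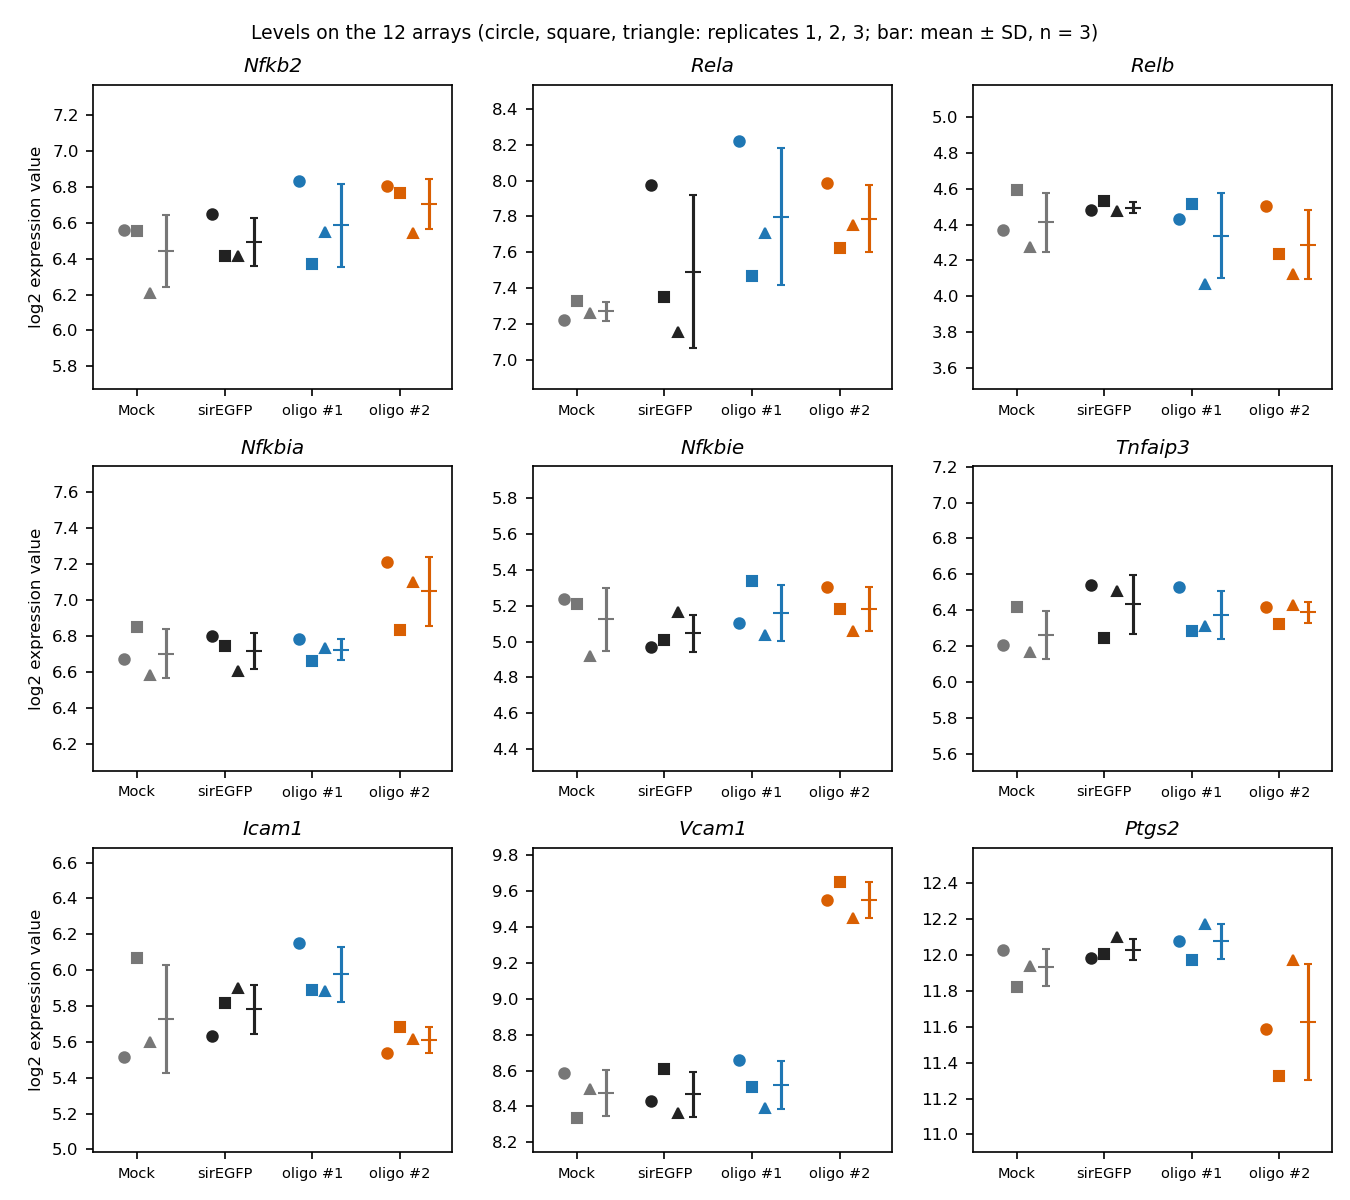
Log2 expression values of the 9 measured genes on the 12 arrays, with 1 panel a gene, the array's group on the x axis and the log2 value on the y axis. Circles, squares and triangles are replicates 1, 2 and 3, and bars are the mean ± SD of 3 arrays. In the Vcam1 panel the oligo #2 arrays lie between 9.45 and 9.65, above all other 9 arrays.

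Icam1, the other adhesion molecule and the ligand of leukocyte integrins, did not pass in any comparison. Its values were 5.51, 6.07 and 5.60 in Mock, 5.63, 5.82 and 5.90 with sirEGFP, 6.15, 5.89 and 5.89 under oligo #1, and 5.54, 5.68 and 5.62 with oligo #2. The oligo #2 arrays were all below the oligo #1 arrays, and both groups overlapped Mock. Icam1 stood at 0.19 with oligo #1 and -0.17 with oligo #2 against sirEGFP (limma adjusted p = 0.665 and 0.720), and the siRNAs differed by -0.36 with an interval of -0.68 to -0.05 (limma adjusted p = 0.244).

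Ptgs2, which makes the precursor of the prostaglandins, stood lower with oligo #2 than with sirEGFP, without passing the test. Its values were 12.03, 11.82 and 11.94 in Mock, 11.99, 12.01 and 12.10 with sirEGFP, 12.08, 11.97 and 12.17 under oligo #1, and 11.59, 11.33 and 11.97 with oligo #2. The oligo #2 arrays lay below all sirEGFP arrays and all oligo #1 arrays, by little for array 3, which was within the Mock range. The change with oligo #2 against sirEGFP was -0.40 ± 0.14, which did not pass (limma unadjusted p = 0.0140, adjusted p = 0.209), and with oligo #1 it was 0.05. Between the siRNAs Ptgs2 differed by -0.45, with an interval of -0.76 to -0.14 (limma adjusted p = 0.118). That difference was called only without oligo #2 array 3, at -0.62 (limma adjusted p = 0.0331), and under none of the other alternatives tried.

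Of the inhibitors, Nfkbia stood higher with oligo #2 than with sirEGFP, without passing the test. Nfkbia encodes IkB alpha, the main cytoplasmic inhibitor of RelA dimers, and is itself induced by NF-kB. Its values were 6.67, 6.85 and 6.58 in Mock, 6.80, 6.74 and 6.60 with sirEGFP, 6.78, 6.66 and 6.73 under oligo #1, and 7.21, 6.83 and 7.10 with oligo #2. The oligo #2 arrays lay above all sirEGFP and all oligo #1 arrays, and array 2 was within the range of Mock. The change with oligo #2 was 0.33 ± 0.12 against sirEGFP (limma unadjusted p = 0.0175, adjusted p = 0.235) and 0.35 against Mock (limma adjusted p = 0.157), and with oligo #1 it was 0.01. Between the siRNAs it differed by 0.32, with an interval of 0.06 to 0.59 (limma adjusted p = 0.216).

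Tnfaip3 encodes A20, a ubiquitin-editing enzyme that ends signalling upstream of the IkB kinase. It ranged from 6.16 to 6.42 in Mock, 6.24 to 6.54 with sirEGFP, 6.28 to 6.53 with oligo #1 and 6.32 to 6.43 with oligo #2, and all groups overlapped. Its change against sirEGFP was -0.06 with oligo #1 and -0.04 with oligo #2 (limma adjusted p = 0.915 and 0.943). Nfkbie encodes IkB epsilon, another inhibitor of the same family. It lay at 4.92 to 5.24 in Mock, 4.97 to 5.16 with sirEGFP, 5.04 to 5.34 with oligo #1 and 5.06 to 5.31 with oligo #2, again overlapping. Its changes were 0.11 and 0.14 (limma adjusted p = 0.818 and 0.758).

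None of the 3 measured subunits passed in any comparison. Rela encodes RelA (p65), the subunit with the main transactivation domain. Its values were 7.22, 7.33 and 7.26 in Mock, 7.97, 7.35 and 7.15 with sirEGFP, 8.22, 7.47 and 7.71 under oligo #1, and 7.99, 7.62 and 7.75 with oligo #2. All 6 knockdown arrays were above the 3 Mock arrays, and they overlapped the sirEGFP arrays. Array 1 was the highest in each of the 3 groups that received an siRNA. The change was 0.30 ± 0.21 against sirEGFP with each siRNA (limma adjusted p = 0.611 and 0.634). With single arrays left out it ran from 0.095 to 0.546 with oligo #1 and from 0.126 to 0.536 with oligo #2, never called. Against Mock it was 0.53 with oligo #1 and 0.52 with oligo #2 (limma adjusted p = 0.254 and 0.219; 2.75% of all genes called with oligo #1).

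The Rela change against sirEGFP was larger when 3 arrays were left out. The arrays sirEGFP 1 and oligo #1 arrays 1 and 2 lay farthest along the main axis of variation within groups, which held 41.5% of that variance. Without them, an alternative added after the data had been seen, Rela was 0.54 higher with oligo #2 against sirEGFP. Against Mock it was 0.52, as before, since no Mock or oligo #2 array was left out. The removal was one-sided for Rela: sirEGFP array 1, at 7.97 beside 7.35 and 7.15, was dropped, while oligo #2 array 1, at 7.99, was kept. The larger change follows from dropping that high control and is no separate support. That fit leaves oligo #1 with 1 array, which is assumed to vary like the other groups. Between the siRNAs, Rela differed by -0.01 with an interval of -0.45 to 0.43 (limma adjusted p = 0.994).

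Nfkb2 encodes p100, the precursor of p52, and Relb the partner of p52 in the non-canonical pathway. Nfkb2 ranged from 6.21 to 6.56 in Mock, 6.42 to 6.65 with sirEGFP, 6.37 to 6.83 with oligo #1 and 6.55 to 6.81 with oligo #2. Its changes against sirEGFP were 0.09 and 0.21 (limma adjusted p = 0.880 and 0.630). Relb, whose probe set was dim enough to fall to the filter on low values, ranged from 4.28 to 4.59 in Mock, 4.47 to 4.53 with sirEGFP, 4.07 to 4.51 with oligo #1 and 4.13 to 4.50 with oligo #2. Its changes were -0.16 and -0.21 (limma adjusted p = 0.745 and 0.628). In both genes the groups overlapped, and the siRNAs differed by 0.12 in Nfkb2 and by -0.05 in Relb (limma adjusted p = 0.800 and 0.931).

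The 9 genes did not move as a block. With oligo #1 against sirEGFP, their changes ran from -0.16 to 0.30 with a median of 0.05, against a median of 0.02 over all genes. With oligo #2 they ran from -0.40 to 1.08 with a median of 0.14, against -0.01 over all genes, and 5 of the 9 were above 0. Without Vcam1 the highest was 0.33. At an unadjusted p under 0.05, limma called 0 of the 9 with oligo #1 (13.4% of all genes), 3 with oligo #2 (12.9%) and 4 between the siRNAs (14.4%).

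With oligo #2 the arrays lay beyond all sirEGFP arrays in 3 of the 9 genes, higher in Nfkbia and Vcam1 and lower in Ptgs2, beside 18.5% of all genes. They lay beyond all oligo #1 arrays in 4 of the 9, higher in Nfkbia and Vcam1 and lower in Icam1 and Ptgs2, beside 18.3% of all genes. With oligo #1 against sirEGFP this held for 0 of the 9, beside 15.5% of all genes. In 0 of the 9 did all 6 knockdown arrays lie beyond all 6 control arrays, as they did in 2.12% of all genes. The control siRNA left the 9 genes between -0.08 and 0.22 of Mock, with 0 called by limma among them and among all genes (0%; at an unadjusted p under 0.05, 0 of the 9 and 6.25% of all genes).

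**Figure D2:**
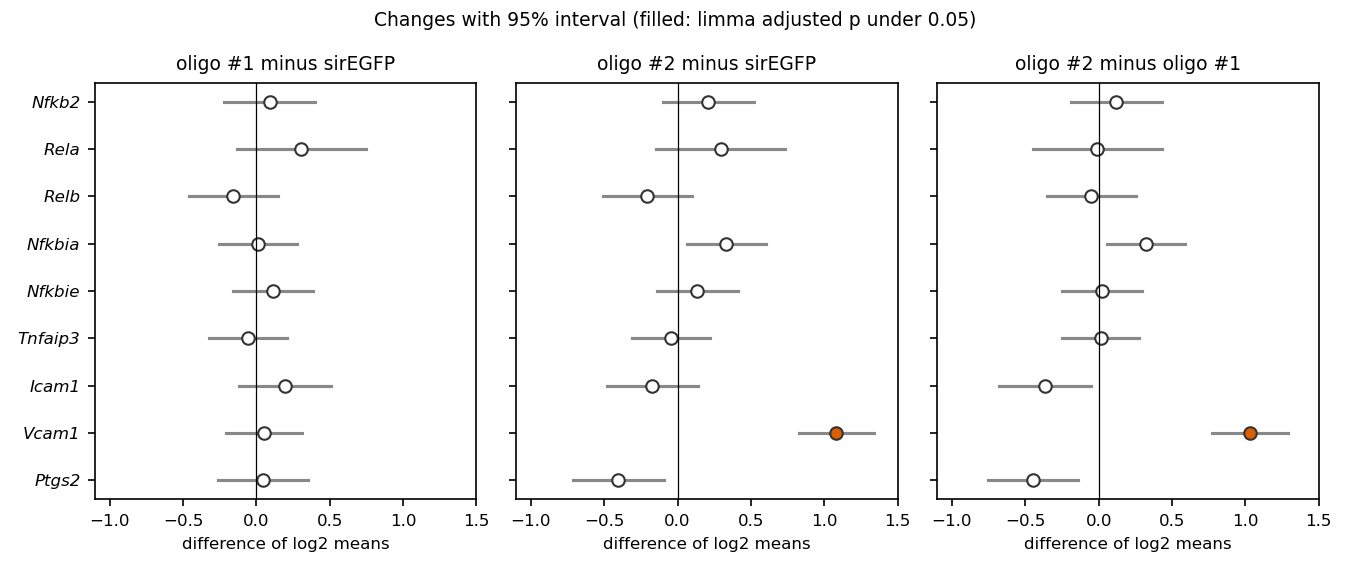
Differences of log2 means (x axis) for the 9 measured genes (y axis) with 95% limma intervals, for oligo #1 against sirEGFP, oligo #2 against sirEGFP and oligo #2 against oligo #1. Filled points passed an adjusted p under 0.05, which only Vcam1 did, at 1.08 and 1.03 in the panels with oligo #2.

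The genes most like Vcam1 over the 12 arrays were Tnc, which encodes the matrix protein tenascin C, Dclk1, a doublecortin-like kinase, and Senp1, a SUMO protease. They had Pearson's r of 0.963, 0.962 and 0.955 among 9969 genes above the median level, given as a description across arrays that share their groups. Over the 9 arrays without oligo #2 the same r were 0.358, 0.507 and 0.583. Tnc and Dclk1 were called with oligo #2 against sirEGFP, at 2.81 and 2.25 (limma adjusted p = 6.57e-06 and 1.35e-05), and stood at 0.23 and 0.19 with oligo #1. Senp1 was not called, at 0.35 (limma adjusted p = 0.120).

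Rela was most like Cachd1 (r = 0.960), App, the amyloid precursor (0.958), and Ets2, an ETS-family transcription factor (0.956). Over the 9 arrays without oligo #2 these r were 0.964, 0.977 and 0.974. None of these 3 was called with either siRNA against sirEGFP. Nfkbia was most like Zfp532 (r = 0.924), Hmox2, the constitutive heme oxygenase (0.910), and Irf2, an interferon regulatory factor (0.891), with r of 0.606, 0.836 and 0.677 over the 9 arrays without oligo #2. Of these, Irf2 was higher with oligo #2 by 0.89 (limma adjusted p = 0.00594) and Zfp532 by 0.65 (limma adjusted p = 0.0470).

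**Figure D3:**
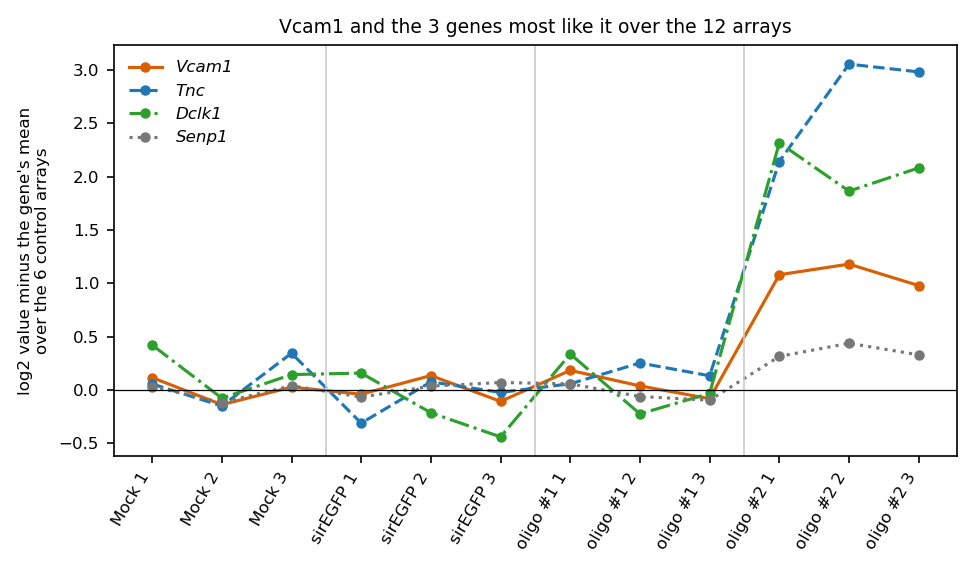
Vcam1 and the 3 genes with the highest r to it, each as the log2 value minus the gene's mean over the 6 control arrays (y axis), for the 12 arrays in order of group (x axis). Lines join the arrays of a gene for reading only. All 4 genes are at their highest on the 3 oligo #2 arrays, with Tnc and Dclk1 changing by more than Vcam1.

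Other genes of the pathway were followed in 7 lists with 130 entries, of which 121 were measured. Over these lists 1 gene was called higher with oligo #1 against sirEGFP, 3 were called higher with oligo #2, and 0 were called lower with either (limma). These are 0.826% and 2.48% of the 121, beside 2.47% and 2.26% of all genes. With the replicate number as a block, 9 of the 121 were called with oligo #2 against sirEGFP, 8 higher and 1 lower, beside 3.88% of all genes. The list medians together were 0.05 and 0.09, beside 0.02 and -0.01 over all genes.

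Among receptors that signal to NF-kB, 1 of 11 measured was called. Il1rap, the co-receptor of the interleukin 1 receptor, stood at 5.57, 5.80 and 5.62 with sirEGFP, 5.45, 5.90 and 5.62 under oligo #1, and 6.43, 6.70 and 6.41 with oligo #2. The oligo #2 arrays were above all others, Mock at 5.61 to 5.90 included. Il1rap rose by 0.85 ± 0.14 with oligo #2 (limma adjusted p = 0.00424), stood at -0.01 with oligo #1, and differed by 0.86 between the siRNAs (limma adjusted p = 0.00289). Both of these calls held under every alternative tried.

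Of 25 measured targets outside the chemokines, 2 were called, both higher with oligo #2. Plau encodes urokinase, the plasminogen activator, and stood at 7.37, 7.28 and 6.78 with sirEGFP, 7.67, 7.17 and 7.20 under oligo #1, and 8.37, 7.91 and 8.29 with oligo #2. Plau rose by 1.05 ± 0.19 with oligo #2 (limma adjusted p = 0.00947), stood at 0.20 with oligo #1, and differed by 0.84 between the siRNAs (limma adjusted p = 0.0236). The call against sirEGFP was lost without sirEGFP array 3 (0.86, adjusted p = 0.0525), oligo #2 array 1 (0.95, 0.0529) or oligo #2 array 3 (1.00, 0.0515).

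Cebpd, a transcription factor of the acute phase response, stood at 6.30, 6.24 and 5.87 with sirEGFP, 6.15, 6.25 and 5.97 under oligo #1, and 6.91, 6.59 and 6.61 with oligo #2. Cebpd rose by 0.57 ± 0.14 with oligo #2 (limma adjusted p = 0.0464), stood at -0.01 with oligo #1, and differed by 0.58 between the siRNAs (limma adjusted p = 0.0291). The call against sirEGFP was lost under 10 of 21 alternatives, where the adjusted p reached 0.221 without sirEGFP array 3. With the replicate block, 3 more of the 25 targets were called with oligo #2: Irf1, an interferon regulatory factor (0.69, limma adjusted p = 0.198 without the block and 0.0192 with it), Tnfaip2 (0.66, 0.0722 and 0.0192), and Cflar, which encodes the caspase inhibitor c-FLIP and stood lower (-0.64, 0.0688 and 0.0149).

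Of 16 other feedback inhibitors, 1 was called, with oligo #1. Traf3ip2 encodes Act1, known as the adaptor that carries signals of the interleukin 17 receptor to NF-kB rather than as an inhibitor, so the call falls on a gene that does not do what the list is named for. It stood at 7.19, 7.24 and 7.10 with sirEGFP, 7.94, 7.62 and 7.64 under oligo #1, and 7.61, 7.48 and 7.37 with oligo #2. Both siRNAs' arrays were above all 6 control arrays, Mock at 7.26 to 7.36 included, with the lowest oligo #2 array at 7.370 beside the highest Mock array at 7.365. Of all genes, 2.12% had the knockdown arrays beyond the control arrays in either direction. Against Mock, Traf3ip2 stood at 0.42 with oligo #1 and 0.18 with oligo #2, neither called (limma adjusted p = 0.0787 and 0.582). Against sirEGFP the change was 0.56 ± 0.12 with oligo #1 (limma adjusted p = 0.0218) and 0.31 with oligo #2 (limma adjusted p = 0.243), and the siRNAs differed by -0.25 (limma adjusted p = 0.369). The call with oligo #1 was lost under 5 of 21 alternatives, among them without sirEGFP array 2 (adjusted p = 0.0707) or 3 (0.106) and without oligo #1 array 1 (0.0957) or 3 (0.0523). The mean of both, 0.44 (limma adjusted p = 0.0426), was lost under 15 of 21.

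Against sirEGFP, no gene was called with either siRNA in the other 4 lists in the main fit, which has no replicate block. With the block, which changes the call of 3 of their genes with oligo #2, Ptges (0.62, limma adjusted p = 0.121 without the block and 0.0154 with it), Map3k7 (0.47, 0.0545 and 0.0431) and Irak1 (0.40, 0.144 and 0.0443) were called higher. Against Mock, without the block, Irak1 stood at only 0.19 with oligo #2 (limma adjusted p = 0.598). Map3k7 and Ptges stood at 0.49 and 0.73 in that comparison, both called (limma adjusted p = 0.0312 and 0.0450). Map3k7 was also called without the block after median centring (limma adjusted p = 0.0384), quantile normalization (0.0480) or the filter on dim genes (0.0432). The same held for the trend and robust fit (0.0433) and for both controls together (0.0145). Ptges was also called with both controls together (limma adjusted p = 0.0290). The lists included 11 measured subunits, inhibitors and regulators of nuclear NF-kB, with changes with oligo #2 of -0.11 to 0.34. They also included 23 adaptors and kinases, with changes of -0.26 to 0.57. The other lists were 20 adhesion partners of Icam1 and Vcam1, with changes of -0.23 to 0.21, and 15 genes of prostaglandin synthesis and receptors, with changes of -0.40 to 0.62. The smallest p for the mean of both siRNAs among nuclear regulators belonged to Btrc, the ubiquitin ligase subunit that recognises phosphorylated IkB (0.32, limma adjusted p = 0.304), and to Nfkbib, which encodes IkB beta (0.35, 0.535). Among adaptors and kinases they were Map3k7, which encodes the kinase TAK1 (0.33, limma adjusted p = 0.141), and Irak1, the interleukin 1 receptor-associated kinase (0.32, 0.191).

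Of the adhesion partners, the integrin chain Itgb2 stood at 0.28 for the mean of both siRNAs (limma adjusted p = 0.241). Jam2, a junctional adhesion molecule, stood at -0.21 (0.589). Itgb2 stood at 0.47 with oligo #1 against sirEGFP (limma adjusted p = 0.0603) and at 0.09 with oligo #2 (0.849). The siRNAs differed by -0.375 in Itgb2 (limma adjusted p = 0.121). Its change with oligo #1 was called with the replicate block (limma adjusted p = 0.0415) or the filter on dim genes (0.0489). The replicate numbers were not taken as pairing those arrays. Of the prostaglandin genes, Ptges encodes the prostaglandin E synthase that works after Ptgs2. For the mean of both siRNAs, Ptges stood at 0.50 (limma adjusted p = 0.168, or 0.0248 with the replicate block). The transporter Slco2a1 stood at 0.46 for that mean (limma adjusted p = 0.403). Against Mock, oligo #2 had 8 genes of the 121 called higher by limma and 0 lower, or 6.61% beside 4.25% of all genes. They included the TAK1 partners Tab2 and Tab3 with Map3k7 itself, and also Ptges, Plau, Cebpd, Il1rap and Hif1a, the hypoxia-inducible factor subunit. Between the siRNAs 4 of the 121 (3.31%, beside 3.67% of all genes) were called, all higher with oligo #2, which were Il1rap, Plau, Cebpd and Rdx. Rdx encodes radixin, a linker of adhesion molecules to actin, and stood at -0.44 with oligo #1 and 0.14 with oligo #2 against sirEGFP (limma adjusted p = 0.0623 and 0.694). With the replicate block, Fbxw11, a ubiquitin ligase subunit like Btrc, and Itgb1, an integrin chain, were called between the siRNAs as well (0.48, limma adjusted p = 0.0436, and 0.40, 0.0462).

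**Figure D4:**
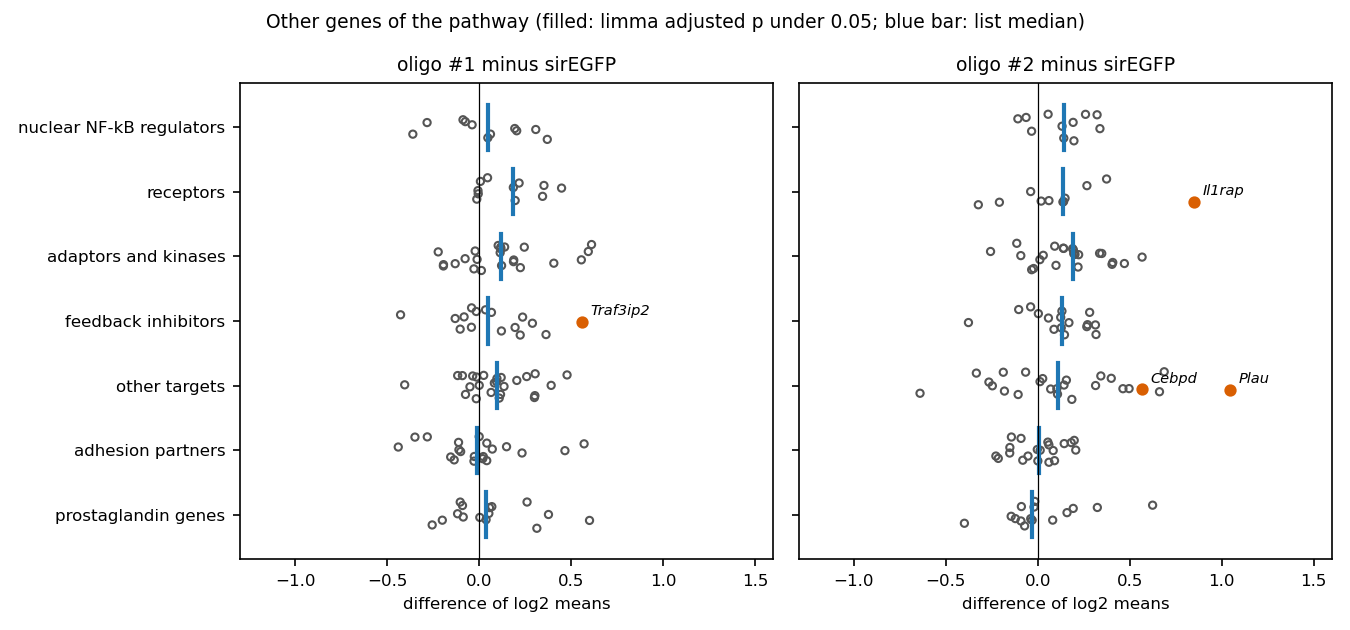
Differences of log2 means (x axis) against sirEGFP for the 121 measured genes of the 7 lists (y axis), with oligo #1 on the left and oligo #2 on the right. Each circle is a gene, filled where the limma adjusted p was under 0.05, and blue bars are list medians. Filled circles are Traf3ip2 (0.56) with oligo #1, and Il1rap (0.85), Plau (1.05) and Cebpd (0.57) with oligo #2.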

How the data were processed

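The members and lists were chosen with earlier results of these data known. The authors deposited log2 expression values for 35512 probe sets; the scale was read from the values, and their normalization is not given in the sources used here. Limma is named in the submitters' processing notes, without a version. Gene names came from the platform annotation and RefSeq (GRCm38.p6): 21789 carried 1 symbol, 1621 several and 12102 none. For 999 genes with several probe sets, that with the highest mean was taken. The 19938 genes were fitted by lmFit and eBayes of limma 3.58.1 (R 4.3.3), two-sided, on 12 arrays with 4 group coefficients and 8 residual degrees of freedom. Calls are at a Benjamini-Hochberg adjusted p under 0.05 over all genes. The fit was tested on simulated data. No arrays were identical; their number limits the precision.

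Genes named were Ubtf, the members, list genes called against sirEGFP with either siRNA or the mean of both (otherwise the 2 with the smallest p for the mean), and the 3 genes most like each of 3 members by Pearson's r. Marker genes and the list genes called only against Mock, between the siRNAs or with the replicate block were chosen after their values were seen. Same-numbered arrays deviated together in every pair between sirEGFP and oligo #2 (r = 0.548, 0.240 and 0.182) and between the siRNAs (0.388, 0.294 and 0.115), so those numbers were taken as pairing the arrays. In the other comparisons they were not. Between sirEGFP and oligo #1 the r were 0.551, 0.294 and -0.080. Numbers that pair both groups with oligo #2 would pair these arrays too, so leaving them unpaired is a choice. The block was fitted over all 12 arrays, Mock included, so groups outside a comparison also set it. Its p-values are therefore not those of a paired test of the groups compared alone. For single genes, block values with oligo #1 against sirEGFP are given for Ubtf and Itgb2 only. The block value of Ptges for the mean of both siRNAs also draws on that unpaired comparison. Alternatives were median centring, quantile normalization, a filter on the dimmest 25% of genes, trend and robust fits, the replicate block, other probe set rules, the mean of both controls, each array left out, and the added fit without 3 arrays.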

Additional observations from a re-analysis of the deposited data

Results flagged for a closer look

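The responses to oligo #1 and oligo #2 against sirEGFP differed from each other, by limma's test of the difference itself, in 14 of the genes described. Of all genes, 732 (3.67%) were called in that test. Several of the 14 were chosen by their pattern or after their values were seen, so their count is not compared with that share. The values are on the log2 scale, as oligo #2 minus oligo #1. Of the 9 measured genes and the list genes called with oligo #2 against sirEGFP, they differed by 1.03 in Vcam1 (adjusted p = 0.000444), by 0.86 in Il1rap (0.00289), by 0.84 in Plau (0.0236) and by 0.58 in Cebpd (0.0291). In these genes 3 of 3 arrays of oligo #2 lay above all 3 arrays of oligo #1, beside 18.3% of all genes without overlap in either direction. They were called between these same groups, so the lack of overlap is no separate support. These 4 genes were called with oligo #2 against sirEGFP and not with oligo #1, while Ubtf differed by -0.05 between the siRNAs. Over the alternatives the difference in Vcam1 ran from 0.97 to 1.16 and stayed called (adjusted p = 0.000278 to 0.00805). The difference in Plau lost its call under 5 of 20 alternatives and that in Cebpd under 6 of 20. The other differences were 0.58 in Rdx, 2.58 in Tnc, 2.06 in Dclk1 and 0.60 in Irf2, and, among cell type markers, 0.81 in Pdgfra, 1.33 in Pdgfrb, -0.67 in Thy1, 0.96 in Cdh5, -0.80 in Csf1r and -1.29 in Lyz2. Tnc, Dclk1 and Irf2 were chosen for likeness to Vcam1 or Nfkbia over arrays that include oligo #2. A difference between the siRNAs was in part built into that choice. Groups of 3 arrays are too small for a test of single outlying arrays.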

How the results depend on the processing

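Limits are the 3 arrays a group, the unknown normalization and the lack of a measure of background. Of 677 alternative values for 33 results on the 9 genes, 641 kept direction and side of the threshold, 2 lost a call, 3 gained one and 31 changed sign, none of them called; the causes were not tested. The replicate block changed no call of the 9 genes, and its other changes of calls in the paired comparisons stand beside the genes. Genes called with oligo #1 against sirEGFP were 493, or 878 with the replicate block, 753 with both controls together, 255 without the 3 arrays farthest along the within-group axis, and 155 to 863 with single arrays left out. With oligo #2 they were 451, or 773, 979, 1049 and 198 to 627, and for the mean 385, or 789, 982, 793 and 108 to 722. Against Mock they were 549 with oligo #1 (block 838, without 3 arrays 145, single arrays 244 to 674) and 848 with oligo #2 (1290, 1314, 307 to 1044), and for sirEGFP 0 (block 3, single arrays 0 to 1). Between the siRNAs they were 732 (without 3 arrays 211, single arrays 328 to 833), with 459 higher and 273 lower, or 637 and 192 after median centring. Of the 9 genes, 2 were called with oligo #2 against sirEGFP and against Mock without the 3 arrays (Vcam1 and Rela), and 0 for the mean. With single arrays left out, 0 to 1 of the 9 were called for the mean and 1 to 2 between the siRNAs. Signs changed with oligo #1 for Nfkbia (-0.0038 centred, -0.036 quantile), Nfkbie (-0.049) and Vcam1 (-0.095) without 3 arrays, and Tnfaip3 (0.027) and Cebpd (0.036) with both controls. They changed with oligo #2 for Tnfaip3 (0.0035 centred, 0.042 both controls, 0.012 without 3 arrays). Between the siRNAs they changed for Rela (0.050 centred, 0.082 without 3 arrays), Relb (0.0095 centred, 0.0020 quantile, 0.218 without 3 arrays) and Ubtf (0.0082 centred, 0.101 without 3 arrays). With single arrays left out, values with oligo #1 ran from -0.033 to 0.197 for Nfkb2, -0.048 to 0.052 for Nfkbia, -0.018 to 0.120 for Vcam1, -0.0032 to 0.096 for Ptgs2, -0.128 to 0.097 for Il1rap and -0.150 to 0.068 for Cebpd. With oligo #2 Tnfaip3 ran from -0.137 to 0.012. Between the siRNAs the ranges were -0.174 to 0.200 for Rela, -0.184 to 0.038 for Relb, -0.038 to 0.112 for Nfkbie, -0.032 to 0.092 for Tnfaip3 and -0.131 to 0.075 for Ubtf.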
